A study of Mus musculus with 4 samples.

Results

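Expression of 36 cell cycle genes was followed across the cells of the mouse heart in 4 single-cell libraries, 1 per group. The genes were chosen by symbol, and all 36 were found among the 32285 genes of each library. They fall into 21 genes of mitosis and its entry (Mki67, Top2a, Cdk1, Ccnb1, Ccnb2, Ccna2, Birc5, Bub1, Bub1b, Cdc20, Cenpa, Cenpe, Cenpf, Aurka, Aurkb, Plk1, Ube2c, Nusap1, Tpx2, Kif11 and Kif23), 13 genes of the start of S phase and of DNA replication (Mcm2 to Mcm7, Pcna, Tyms, Rrm1, Rrm2, Tk1, Ccne1 and Ccne2), and Stmn1 and Hmgb2. These are called the mitotic, S-phase and other members. The groups were control hearts, sham hearts, hearts after cecal ligation and puncture (CLP, an operation that causes sepsis from the gut), and hearts of septic animals given low-level tragus stimulation (CLP_stim, electrical stimulation of the ear's vagal branch). The labels name all cells of the heart as the cell type. The sources used here do not give strain, sex, age, time after the operation or the number of hearts per library.

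Dividing cells switch on these genes in order. Cyclin E (Ccne1, Ccne2) drives entry into S phase, when the MCM helicase (Mcm2 to Mcm7) opens the DNA, Pcna clamps the polymerases to it, and Rrm1, Rrm2, Tyms and Tk1 supply nucleotides. Cyclin A (Ccna2) and cyclin B (Ccnb1, Ccnb2) then activate the kinase Cdk1 for mitosis. The kinases Plk1, Aurka and Aurkb, the motors Kif11 and Kif23 and the kinetochore proteins Cenpa, Cenpe and Cenpf move the chromosomes, and Cdc20 and Ube2c direct the destruction of cyclins at the exit. In the adult heart, cardiomyocytes rarely divide, resident macrophages renew themselves locally, and endothelial cells and fibroblasts are mostly quiescent.

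The 2 main sets also differ in promoter sequence, shown here because the mitotic and S-phase members parted in the expression data below. RefSeq promoter windows (250 bases before to 50 after the start site, GRCm38.p6) were matched for 30 of the 36 members. Stmn1, Ccna2, Ccne2, Aurkb, Tpx2 and Mcm4 were not matched. Windows were searched on both strands for TTTGAA (the cell cycle homology region, CHR, bound by the DREAM and B-MYB complexes), for CCAAT (the NF-Y box), and for the E2F site, TTNNCGC with each N a C or a G (matches can overlap one another). The CHR letters were in 13 of 18 mitotic windows (72.2%), in 1 of 12 S-phase windows (8.33%; Mcm7 has a pair of windows) and in 17.9% of all 32851 windows. E2F letters were in 3 of 18 mitotic windows (16.7%), in 7 of 12 S-phase windows (58.3%) and in 9.57% of all windows. CCAAT was in 88.9% of mitotic, 75% of S-phase and 37.4% of all windows. A match describes letters and does not show that a factor binds there. The 150 bases before the start site are given 5′ to 3′ for 3 mitotic and 2 S-phase members, with every searched motif in capitals. They lie at chr7:135716380-135716529, minus strand (Mki67); chr4:118437344-118437493, minus strand (Cdc20) and at chr19:37376232-37376381, plus strand (Kif11), chr1:128359706-128359855, minus strand (Mcm6), chr7:102441545-102441694, plus strand (Rrm1).
Mki67: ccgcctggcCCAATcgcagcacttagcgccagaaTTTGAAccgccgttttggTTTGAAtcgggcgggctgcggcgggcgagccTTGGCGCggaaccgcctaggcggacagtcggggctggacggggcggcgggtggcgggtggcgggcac
Cdc20: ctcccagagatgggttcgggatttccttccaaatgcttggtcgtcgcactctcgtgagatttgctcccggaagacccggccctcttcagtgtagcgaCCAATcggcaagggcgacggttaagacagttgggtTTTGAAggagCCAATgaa
Kif11: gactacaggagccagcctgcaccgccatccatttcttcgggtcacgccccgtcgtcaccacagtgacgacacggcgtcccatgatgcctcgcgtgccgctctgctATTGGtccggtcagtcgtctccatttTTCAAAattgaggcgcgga
Mcm6: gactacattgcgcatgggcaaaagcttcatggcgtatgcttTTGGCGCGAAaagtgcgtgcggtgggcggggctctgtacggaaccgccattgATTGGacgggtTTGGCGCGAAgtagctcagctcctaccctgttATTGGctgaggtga
Rrm1: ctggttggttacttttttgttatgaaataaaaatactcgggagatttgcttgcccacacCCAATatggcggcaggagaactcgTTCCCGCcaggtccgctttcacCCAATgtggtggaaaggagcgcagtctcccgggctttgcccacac
Mki67, the proliferation antigen Ki-67, holds CHR letters at 2 places and 1 E2F match. Cdc20 and Kif11 hold CHR letters close to the start site and no E2F match. In Mcm6, each capital run TTGGCGCGAA is a pair of overlapping E2F matches on opposite strands, and Rrm1, the large subunit of ribonucleotide reductase, holds TTCCCGC between CCAAT boxes.

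The libraries held 8741 to 15964 barcodes and 54611436 to 59465046 UMIs (molecules counted by unique barcodes). After filters on depth, genes, mitochondrial RNA and doublets, 13568 control, 8281 sham, 7745 CLP and 8022 CLP_stim cells were kept, with median UMIs of 2992, 5334, 5522 and 5003.5. Control was thus the shallowest library and had the most cells. Cells were called macrophage-like, endothelial-like and so on from marker genes, and 67.5% to 87.7% received a class. All 8 markers of the macrophage, endothelial and fibroblast classes were detected in that class in every library. Cells entered a class by these same markers, so their detection does not check the classes. Pairs of libraries shared 15 to 47 barcodes. With 1 library per group no test is possible. Intervals are 95% and cover counting error only, since the spread between animals is unknown. Any difference between groups cannot be told apart from a difference between libraries. Those on summed UMIs and their ratios also treat each UMI as independent. Over all kept cells, 55.2%, 75.6%, 59.1% and 83.6% of mitotic UMIs lay in cells with at least 4 mitotic members (control, sham, CLP and CLP_stim). Those intervals leave out the spread between cells and are too narrow for it.

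Over all kept cells, the mitotic members taken as a sum, though not each of them, were highest in CLP_stim and lowest in CLP. Their summed level was 107 CPM in control (UMIs of the genes scaled to 1e+06 UMIs of the cells) (104 to 110), 201 in sham (197 to 205), 82.7 in CLP (80.3 to 85.2) and 360.4 in CLP_stim (355 to 366). On the log2 scale this was 0.91 for sham over control (0.87 to 0.96), -1.28 for CLP over sham (-1.33 to -1.23) and 2.12 for CLP_stim over CLP (2.08 to 2.17). The S-phase members moved the same way by less: 234.5, 285, 209 and 284 CPM, with log2 ratios of 0.28, -0.45 and 0.44. Their CLP_stim level equalled that of sham within counting error (log2 interval -0.04 to 0.03), while the mitotic members stood 1.79-fold above sham. Without Pcna, the most abundant S-phase member, the other 12 were at 119, 136, 89.0 and 153 CPM, and CLP_stim lay above sham (0.17, 0.13 to 0.22). In bulk sums of this kind, fewer dividing cells, less RNA per dividing cell and a different mix of cell classes cannot be told apart. The mix did differ: 81.3% of kept cells received a class in CLP and 67.5% in CLP_stim. The ratios of single members over all kept cells, given next, share this limit. The counts of cells and the values within classes below bear on this.

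Member by member, 32 of 36 were higher in sham than in control, 11 of them by 2-fold or more, against 2.21% of the 16406 genes measured (at least 20 counts over the pair). None was lower by 2-fold or more, against 1.71% of genes. In CLP against sham, 33 of 36 were lower and 19 were past 2-fold, against 9.77% of genes, and 0 were higher past 2-fold (background 4.41%). In CLP_stim against CLP, all 36 were higher and 26 were past 2-fold (background 7.46%), with 0 lower past 2-fold (background 23.6%). The median log2 ratios of the members were 0.65, -1.07 and 1.89, beside 0.00, -0.09 and -0.26 over all genes. Aurka, the kinase of the spindle poles, was 1 of the 3 members not lower in CLP. Its levels were 1.81, 2.37, 2.82 and 9.22 CPM in control, sham, CLP and CLP_stim. Aurkb, the kinase of the chromosomal passenger complex, had the largest ratio for CLP_stim over CLP, with 2.37, 3.57, 0.761 and 7.73 CPM and a log2 ratio of 3.33. With doublet calls kept, 1 member in place of 11 was past 2-fold in sham over control. With cells thinned to 1000 UMIs, 3 were past it there and 5 in CLP over sham.

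**Figure D1:**
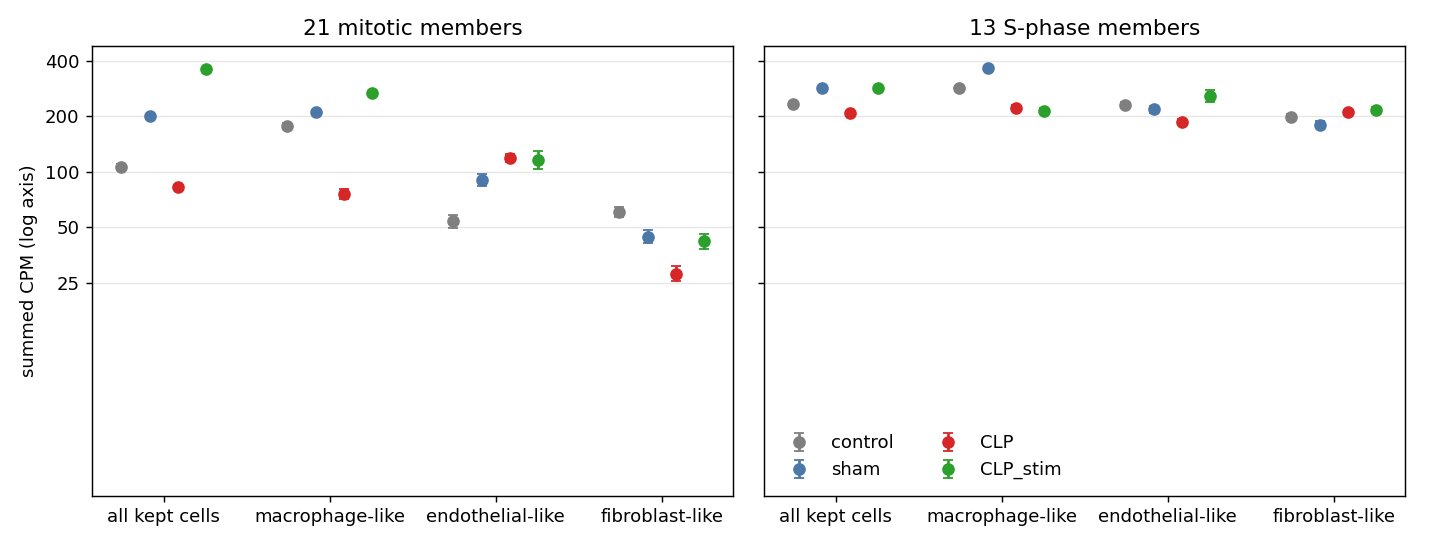
Summed CPM (log axis) of the 21 mitotic and 13 S-phase members, by library, in all kept cells and in 3 cell classes; bars are 95% Poisson intervals (counting error only). In macrophage-like cells the mitotic sum was 75.9 in CLP and 267 in CLP_stim, while the S-phase sum was 222 and 215 (75.8 and 93.3 without Pcna).

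Macrophage-like cells, which numbered 4023, 3126, 1636 and 2934 in control, sham, CLP and CLP_stim, showed both the drop in CLP and a split between the sets. Their mitotic sum was 178 (172 to 185), 211 (204 to 217), 75.9 (71.2 to 80.7) and 267 (260.2 to 274) CPM. CLP lay 2.78-fold below sham (log2 ratio -1.47, -1.58 to -1.37), and CLP_stim lay 3.52-fold above CLP (1.82, 1.72 to 1.91). The S-phase sum was 284, 366, 222 and 215. It was 1.65-fold lower in CLP than in sham (-0.72, -0.78 to -0.66), and CLP_stim was at the CLP level (-0.04, -0.11 to 0.02) and 1.7-fold below sham. This sum is set largely by Pcna. The other 12 S-phase members summed to 141, 152, 75.8 and 93.3 CPM, so that without Pcna CLP_stim was higher than CLP (0.30, 0.19 to 0.41) and lower than sham (-0.70, -0.78 to -0.62). The sum without Pcna was added after the values were seen. With or without Pcna, the S-phase ratio for CLP_stim over CLP was smaller than the mitotic one.

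Among mitotic members of macrophage-like cells, Mki67 was at 24.6 CPM in control, 28.1 in sham, 5.16 in CLP and 35.5 in CLP_stim. CLP was the low library, with the other 3 above it. The log2 ratio was -2.44 (-2.83 to -2.08) for CLP over sham and 2.77 (2.42 to 3.16) for CLP_stim over CLP. Nusap1, a protein that bundles spindle microtubules, followed the same course at 6.05, 9.17, 1.52 and 12.3, with log2 ratios of -2.56 and 2.98. Cenpf, a kinetochore protein, stood at 8.41, 11.7, 2.05 and 15.2 (-2.49 and 2.87). Birc5, the passenger complex subunit survivin, was at 14.9, 16.8, 4.86 and 23.8 (-1.78 and 2.28). Each of these 4 genes had its lowest level in CLP and its highest in CLP_stim. Kif11, the motor that pushes spindle poles apart, was at 3.36, 4.11, 0.835 and 3.85, so that CLP_stim matched sham within counting error (log2 interval -0.56 to 0.37).

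The cyclins and their kinase were likewise lower in CLP than in sham. Cdk1 was at 5.45, 10.1, 4.48 and 11.9 CPM, Ccnb1 at 1.88, 4.95, 2.66 and 9.39, Ccnb2 at 4.44, 7.01, 2.81 and 11.5, and Ccna2 at 3.36, 3.37, 0.911 and 5.07. CLP_stim was the highest library for each. Ccnb1 also differed between control and sham, with a log2 ratio of 1.38 (0.77 to 2.06) for sham over control, the highest of the members. With doublet calls kept, no member of this class was higher past 2-fold in sham. The 2 genes of mitotic exit did not share the drop equally. Cdc20, the activator of the ubiquitin ligase APC/C, was at 3.90, 6.54, 2.81 and 8.36 (-1.20 for CLP over sham). Ube2c, the ligase's ubiquitin carrier, was at 8.61, 11.6, 9.42 and 28.2, with -0.30 (-0.64 to 0.02) for CLP over sham. Aurka likewise did not differ between CLP and sham beyond counting error (0.18, -0.46 to 0.80), and was at 2.69, 2.69, 3.04 and 7.61. Of the checkpoint and centromere genes, Bub1 was at 1.35, 1.84, 0.759 and 2.16, Bub1b at 4.17, 4.48, 1.29 and 5.96, Cenpa at 31.9, 29.0, 9.42 and 25.9, and Cenpe at 6.05, 6.69, 2.20 and 10.4. All 4 were lowest in CLP, and Cenpa alone of them was not highest in CLP_stim. Plk1, the kinase that triggers several steps of mitosis, was at 1.08, 2.37, 0.987 and 3.00, and Aurkb at 5.11, 5.43, 1.06 and 4.84. Tpx2, which activates Aurka on the spindle, was at 6.995, 8.54, 4.71 and 13.5, and Top2a, the topoisomerase that untangles chromosomes, at 19.9, 20.7, 8.28 and 16.9. Top2a was below its sham level in CLP_stim, with a log2 ratio of -0.30 (-0.51 to -0.09), as was Kif23 (-0.37, -0.62 to -0.13). Cenpa (-0.34 to 0.01) and Aurkb (-0.58 to 0.24) did not differ from sham beyond counting error.

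Together, 34 of the 36 members were lower in CLP than in sham in macrophage-like cells, the exceptions being Aurka and Ccne1. Of these, 25 were past 2-fold, against 18.1% of the 12794 genes measured, and 0 were higher past 2-fold (background 5.17%). In CLP_stim against CLP, 23 were higher past 2-fold (background 8.4%), of which 20 were mitotic, and 0 were lower past 2-fold (background 8.92%). Kif23, a motor of the cell's final cleavage, was the mitotic member that stayed under 2-fold (14.1, 15.3, 6.61 and 11.8; log2 ratio 0.84). In sham against control, 3 members were higher past 2-fold (background 1.64%) and 0 lower (background 1.62%). The median of the members was 0.18 beside 0.03 for all genes. With doublet calls kept, 0 members were higher past 2-fold in sham than in control. The medians for the other comparisons were -1.22 beside -0.24, and 1.35 beside 0.04. After thinning of cells to 1000 UMIs, fewer members reached the minimum count, and 7 and 14 passed 2-fold in these comparisons.

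**Figure D2:**
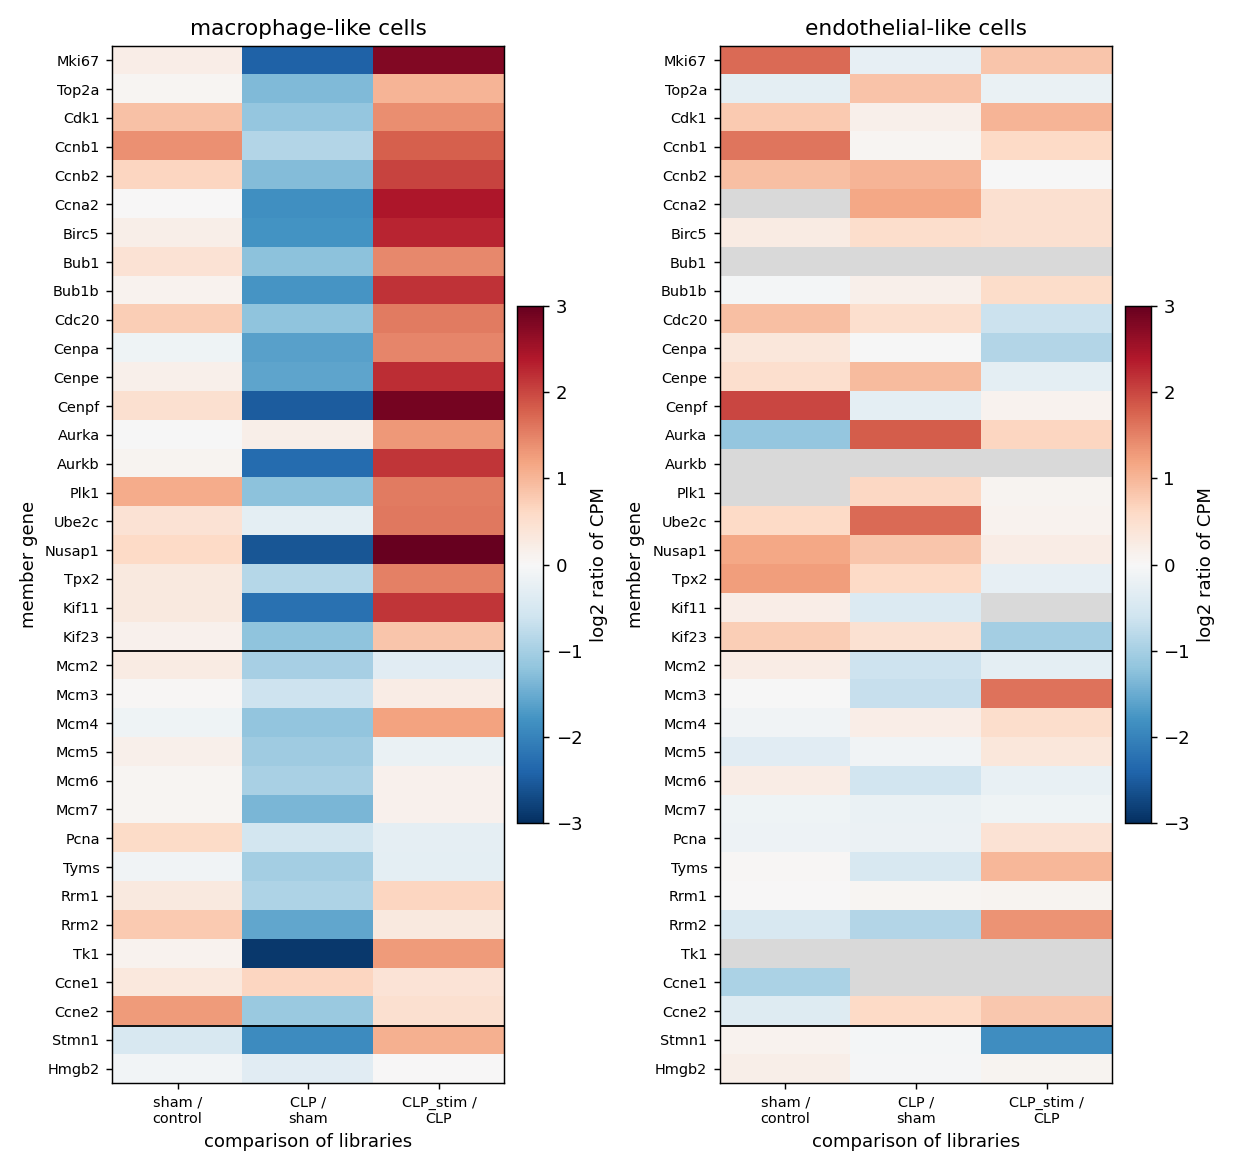
Log2 ratios of CPM for each member (rows, with lines between the mitotic, S-phase and other members) in macrophage-like and endothelial-like cells for 3 comparisons of libraries; grey marks fewer than 20 counts over the pair. In macrophage-like cells the mitotic rows go from -2.56 to 0.18 for CLP over sham and from 0.84 to 2.98 for CLP_stim over CLP, while 4 S-phase rows lie below 0 in the latter.

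All S-phase members of macrophage-like cells but Ccne1 were lower in CLP than in sham, and in CLP_stim 9 of the 13 were higher and 4 lower than in CLP, with a median log2 ratio of 0.22. The helicase gene Mcm2 was at 8.48, 10.01, 5.01 and 3.94 CPM, Mcm5 at 13.1, 14.6, 6.99 and 6.10, and Mcm7 at 20.2, 21.2, 8.13 and 8.87. For these 3 genes both septic libraries lay together below control and sham, with CLP_stim over sham at -1.34, -1.26 and -1.26. Tyms, thymidylate synthase, was at 12.0, 11.3, 5.54 and 4.51, and Pcna at 143, 214, 146 and 122. Pcna supplied 2594 of the 4582 S-phase counts in CLP_stim. Mcm4 and Tk1 were the S-phase members past 2-fold for CLP_stim over CLP. Mcm4 was at 16.5, 15.0, 6.61 and 15.3 (1.20, 0.86 to 1.57, for CLP_stim over CLP), and Rrm1, under 2-fold, at 12.7, 15.6, 8.20 and 12.8 (0.64, 0.32 to 0.98). Mcm3 was at 29.7, 30.5, 19.7 and 23.1, Mcm6 at 20.2, 21.2, 10.9 and 11.9, and Rrm2 at 3.03, 5.22, 1.75 and 2.16. These 3 genes were also below control and sham in both septic libraries. Cyclin E2 (Ccne2), at 0.605, 1.53, 0.683 and 0.986, had 9 to 29 counts a library. Tk1, thymidine kinase, had the lowest ratio of any member for CLP over sham, at -2.90 (-4.35 to -1.88), from 80 counts in sham to 7 in CLP, and the highest S-phase ratio for CLP_stim over CLP, at 1.28 (0.13 to 2.79), from 7 counts to 29. Cyclin E1 (Ccne1) was at 0.874, 1.11, 1.75 and 2.35, with 13 to 50 counts, and its CLP to sham ratio was not distinguishable from equal levels (-0.26 to 1.58).

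The other members differed from each other. Stmn1, which encodes stathmin, a destabiliser of microtubules, was at 161, 116, 31.1 and 65.0 CPM in macrophage-like cells, with log2 ratios of -1.90 (-2.05 to -1.75) and 1.06 (0.90 to 1.22) for CLP over sham and CLP_stim over CLP. Hmgb2, a chromatin protein, was at 450.5, 428, 337 and 343, so its CLP and CLP_stim levels did not differ beyond counting error (-0.03 to 0.08). Markers of other cells also moved in this class. The summed neutrophil markers were at 95.04 and 171 CPM in control and sham and at 1718 and 1263 in CLP and CLP_stim, the B cell markers at 302 and 295 against 35.1 and 24.1, and the macrophage markers themselves at 17548, 19941, 12790 and 9730. Their part in the results was not tested.

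Genes of the cell cycle outside the 36 were compared in 4 lists. Of 40 further mitotic genes, 38 were measured in macrophage-like cells for CLP over sham; 36 were lower and 29 were past 2-fold (background 18.1%; median -1.54). For CLP_stim over CLP, all 40 were higher and 33 past 2-fold (background 8.4%; median 1.51). Pclaf, counted in this list though its product is a partner of the S-phase member PCNA, was at 10.3, 13.3, 1.21 and 4.37 CPM. The kinesin Kif15 was at 2.09, 3.74, 0.456 and 2.77. Of 35 further S-phase genes, 34 were lower in CLP than in sham, 10 past 2-fold (background 18.1%; median -0.63). For CLP_stim over CLP, 19 were higher and 15 lower of 34 measured, with 4 and 2 past 2-fold, near the backgrounds of 8.4% and 8.92%, and a median of 0.04. Among these S-phase genes, uracil glycosylase Ung (-1.22) and the polymerase subunit Pold1 (-1.10) had the lowest ratios for CLP_stim over CLP, and Pole (1.35) and Clspn (1.26) the highest. The medians for the same comparisons were -1.32 and 1.80 for the mitotic members and -1.02 and 0.22 for the S-phase members.

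Upstream of S phase, most activators of G1 were lower in CLP_stim than in CLP in macrophage-like cells, many of them by little. Cyclin D1 (Ccnd1), the growth factor-responsive partner of Cdk4 and Cdk6, was at 87.4, 135, 45.3 and 6.57 CPM in macrophage-like cells. It was lower in CLP than in sham (-1.57, -1.70 to -1.44) and lower again in CLP_stim than in CLP (-2.78, -3.06 to -2.52). Cdk6 (46.3, 60.7, 35.3 and 14.9) followed the same order, and Myc was at 23.2, 36.4, 39.0 and 16.99. Of the 9 activators measured for CLP_stim over CLP, 2 were higher and 7 lower, 3 of them past 2-fold (background 8.92%). The other lower ones lay between -0.17 (Ccnd2) and -0.32 (E2f3). Among 21 genes that restrain the cycle, 13 were higher and 8 lower in CLP_stim than in CLP, with 4 higher past 2-fold (background 8.4%). The p53 target Cdkn1a, encoding the inhibitor p21, was at 801, 587, 632 and 1498, a log2 ratio of 1.25 (1.21 to 1.28) for CLP_stim over CLP. Gadd45a, a stress-response gene, was at 49.1, 36.5, 43.4 and 131 (1.59). Cdkn1c, encoding p57, was at 28.2, 26.1, 5.54 and 11.1. In the stimulated library, higher mitotic members stood beside the highest Cdkn1a and the lowest Ccnd1 levels of the 4 libraries. All of these are sums over the whole macrophage-like class. They do not show the Cdkn1a or Ccnd1 level of the cells that held the mitotic members.

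Summed levels do not say how many cells divide, so cells with a UMI of at least 4 different mitotic members were counted. They were 95 of 13568 cells in control (0.700%, 0.567 to 0.855), 142 of 8281 in sham (1.71%, 1.45 to 2.02), 82 of 7745 in CLP (1.06%, 0.843 to 1.31) and 281 of 8022 in CLP_stim (3.50%, 3.11 to 3.93). Cells with exactly 4 numbered 19, 26, 16 and 48, and cells with exactly 3, just outside the limit, 35, 57, 40 and 95. No cardiomyocyte-like cell reached the limit, with 0 of 264, 0 of 222, 0 of 248 and 0 of 70 cells, which allow shares of up to 1.14%, 1.35%, 1.21% and 4.29%. Their median depth was low, at 745 to 868 UMIs, and 4.03% to 7.20% of them had a UMI of any mitotic member, against 21.8% to 30.9% of macrophage-like cells. After each cell was thinned to 1000 UMIs, the shares with at least 2 mitotic members were 0.631%, 1.32%, 0.549% and 3.37%. CLP was then the lowest library in place of control.

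In macrophage-like cells the share was 1.32% in control (0.988 to 1.72), 2.24% in sham (1.75 to 2.82), 1.22% in CLP (0.748 to 1.88) and 3.24% in CLP_stim (2.63 to 3.94), from 53, 70, 20 and 95 cells. CLP_stim was the highest library, and the intervals of control and CLP overlapped. The CLP_stim over CLP ratio was 1.38 on the log2 scale (0.70 to 2.18), and 2.53 after thinning. The sham to control difference depended on doublets. Doublet calls held 81 of 176 such barcodes in control (48 of 101 among macrophage-like barcodes), but 28 of 170 in sham, 6 of 88 in CLP and 11 of 292 in CLP_stim. With these barcodes kept, 2.29% of control and 2.24% of sham macrophage-like cells passed, a log2 ratio of -0.03 in place of 0.76 (0.23 to 1.31). The mitotic sum of macrophage-like cells then reversed for sham over control (-0.51 in place of 0.24). For CLP over sham and CLP_stim over CLP, the directions of the mitotic sum and of the share were the same with these barcodes kept.

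**Figure D3:**
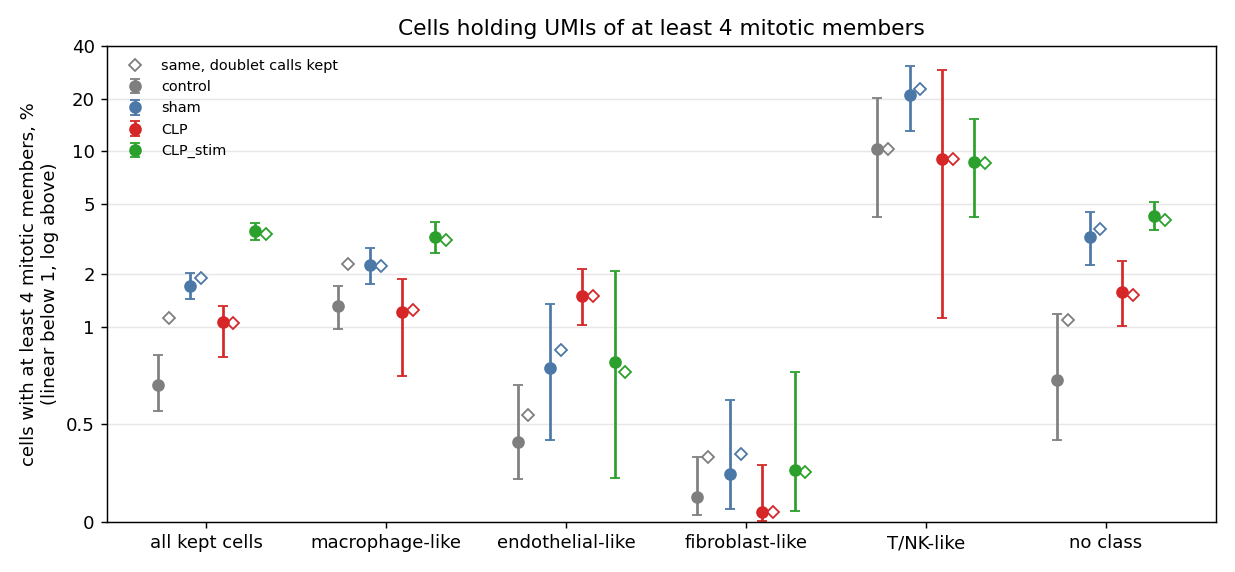
Percentage of cells with UMIs of at least 4 mitotic members, by class and library (axis linear below 1% and logarithmic above); filled points are kept cells with 95% exact binomial intervals, and open diamonds include barcodes called doublets. The macrophage-like control value moves from 1.32% to 2.29% when doublet calls are kept, while CLP_stim is at 3.24% and 3.14%. T/NK-like cells number 22 in CLP.

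The S-phase members also differed inside the dividing macrophage-like cells, which were selected by the mitotic members alone. In cells with at least 4 mitotic members, the S-phase sum was 1239 CPM in control (1138 to 1346), 1272 in sham (1200.1 to 1348), 523 in CLP (438 to 619) and 480.1 in CLP_stim (443 to 519.8). The septic libraries lay together, with log2 ratios to sham of -1.28 (-1.55 to -1.02) in CLP and -1.41 (-1.55 to -1.26) in CLP_stim. In the remaining macrophage-like cells the sum was 254, 319.9, 216 and 198. The mitotic sum within the dividing cells, which their choice fixes in part, was 3450, 3016, 2150 and 3511, so that in CLP_stim it was as high as in control while the S-phase sum was less than in control. Mcm7 was at 151, 116, 50.7 and 29.9, Tyms at 111, 80.1, 15.6 and 26.0, and Tk1 at 82.3, 69.1, 19.5 and 14.2, each from 4 to 106 counts a library. Pcna was at 303, 397, 152 and 173, and without it the differences from sham were -1.23 and -1.51. Cell limits of 3 and 6 members, other gates and kept doublet calls were also run. The CLP value then ran from -2.93 to -1.16 and the CLP_stim value from -1.51 to -1.10. The -2.93 comes from 9 cells. TMM scaling and thinning of cells were not run for this result, so its dependence on depth was not tested. In CLP, 20 cells underlie the main value, and these comparisons were added after the values were seen. Neutrophil markers in these cells were at 17.8, 451, 347 and 774 CPM and macrophage markers at 12411, 15018, 10137 and 7723; their part in the result was not tested.

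**Figure D4:**
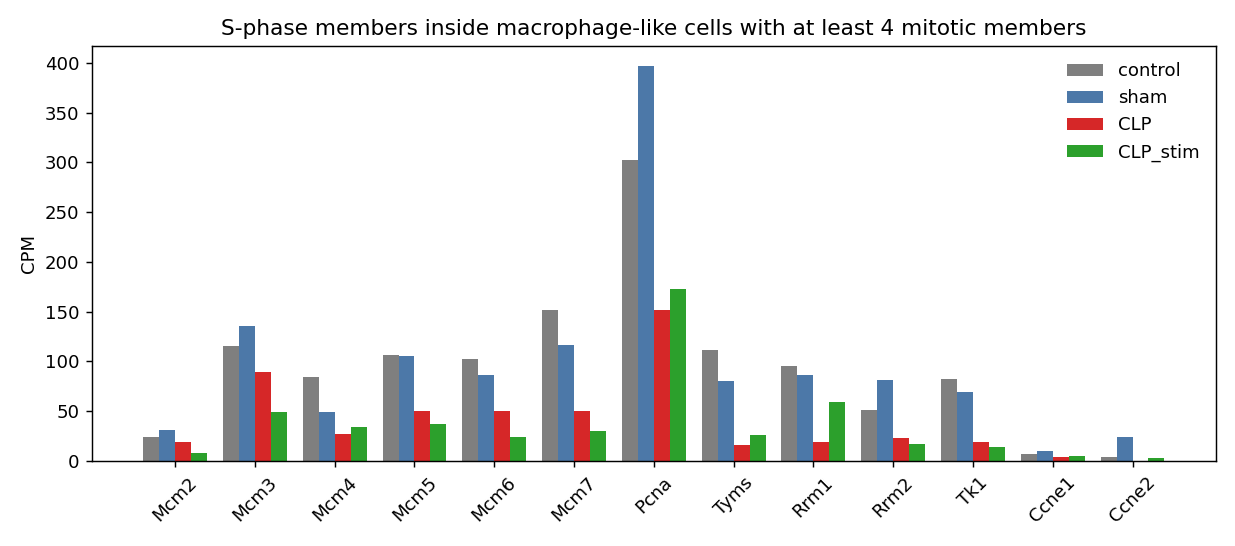
CPM of each S-phase member inside macrophage-like cells with at least 4 mitotic members (53, 70, 20 and 95 cells in control, sham, CLP and CLP_stim), bars starting at 0. For every S-phase member the CLP and CLP_stim bars are both below the control and sham bars. Ccne1 and Ccne2 rest on 0 to 22 counts a library.

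How closely each member marked the dividing cells also differed between the sets. The share of a gene's UMIs that lay in cells with at least 4 mitotic members was read over all kept cells; for mitotic members it is fixed in part by the choice of cells. The cells held 1.65%, 4.7%, 2.76% and 10.3% of all UMIs in control, sham, CLP and CLP_stim. Among S-phase members, Tk1 and Rrm2 were the most concentrated, with 61.5%, 81.8%, 47.8% and 80.1% of Tk1 and 30.7%, 71.2%, 19.9% and 78.9% of Rrm2. Pcna was at 3.52%, 9.77%, 2.65% and 15.7%. The MCM genes lay between, from 5.42% (Mcm4 in CLP) to 61.6% (Mcm5 in CLP_stim). Most Pcna was therefore read in cells that did not pass the limit. Stmn1 had 29.1%, 51.0%, 20.1% and 69.4% of its UMIs in these cells, and Hmgb2 10.8%, 31.2%, 11.4% and 39.4%. The cells were also deeper than the rest, with median UMIs of 7430, 13220, 16881 and 14562 against 2966, 5279, 5438 and 4782.

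Endothelial-like cells, 3169, 1644, 1988 and 489 in the 4 libraries, did not show the drop of the mitotic members in CLP. Their mitotic sum was 53.9 (49.4 to 58.6), 90.2 (84.1 to 96.7), 119 (113 to 126) and 116 (104 to 129) CPM. It was higher in sham than in control (0.74, 0.59 to 0.90) and higher in CLP than in sham (0.40, 0.28 to 0.53), and CLP_stim was level with CLP within counting error (-0.21 to 0.14). The S-phase sum was 232, 218, 187 and 258, lower in CLP than in sham (-0.23, and -0.28, -0.40 to -0.15, without Pcna). The share of cells with at least 4 mitotic members was 0.410% in control, 0.791% in sham, 1.51% in CLP (30 cells, 1.02 to 2.15) and 0.818% in CLP_stim (4 cells, 0.223 to 2.08). The CLP to sham ratio of shares was 0.90 on the log2 scale, with an interval from -0.05 to 1.99. With doublet calls kept, the mitotic ratios were 0.33 for sham over control and 0.22 for CLP over sham, and the stricter gate gave -0.67 for CLP_stim over CLP.

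The endothelial members with the highest ratios from sham to CLP were other genes than those from control to sham. Both ratios hold the sham level, so counting error in sham alone moves them in opposite directions. Whether it accounts for the contrast was not tested. For sham over control, Cenpf (3.08, 12.6, 10.4 and 10.96 CPM) had a log2 ratio of 2.02 and Mki67 (2.58, 8.51, 7.22 and 12.7) of 1.70. Their ratios for CLP over sham were -0.28 and -0.24. For CLP over sham, Ube2c (1.79, 2.72, 9.01 and 9.54) had 1.70 (1.08 to 2.43) and Aurka (1.59, 0.681, 2.55 and 3.89) had 1.81 from 6 and 30 counts. In CLP_stim against CLP, Stmn1 was the lowest member, at 83.2, 89.8, 86.5 and 23.7 (-1.86, -2.25 to -1.51), and the helicase gene Mcm3 the highest, at 16.0, 15.8, 9.69 and 29.7 (1.62). Of the members measured, 5 of 31 were higher past 2-fold in sham over control (background 1.39%) and 1 lower (0.822%). In CLP over sham the counts were 4 of 32 higher (4.4%) and 0 lower (7.34%), and in CLP_stim over CLP 3 of 31 higher (8.82%) and 2 lower (19.1%). Cdkn1a was higher in the septic libraries of this class, from 179 in sham to 1281 in CLP and 2842 in CLP_stim, and Ccnd1 went from 421 to 145 and 54.1. Red blood cell markers in this class were at 729, 76.95, 1739 and 181, and neutrophil markers at 37.6, 112, 433 and 766; their part in the results was not tested.

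Fibroblast-like cells held few dividing cells, 4 of 3100, 4 of 1640, 1 of 1922 and 3 of 1142. Their mitotic sum was 60.4, 44.4, 28.0 and 41.9 CPM, and the S-phase sum 198, 180.5, 210.4 and 217. Ube2c was at 7.04, 0.835, 1.65 and 3.44, and Top2a at 5.74, 1.14, 2.27 and 2.02. Past 2-fold, 2 of 32 members were higher and 5 lower in sham over control (backgrounds 0.946% and 1.42%), 1 of 31 higher and 7 lower in CLP over sham (3.85% and 7.47%), and 6 of 30 higher and 1 lower in CLP_stim over CLP (4.54% and 17.2%). The mitotic sum for CLP over sham, -0.67, was 0.04 under the stricter gate, so its direction rests on the gate. Ccnd1 was at 109.6, 109, 15.8 and 10.9 in this class, a log2 ratio of -2.78 for CLP over sham.

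The classes of the dividing cells shifted between libraries. Macrophage-like cells were 53 of 95 (55.8%) in control, 70 of 142 (49.3%) in sham, 20 of 82 (24.4%) in CLP and 95 of 281 (33.8%) in CLP_stim. Endothelial-like cells were 36.6% of the dividing cells in CLP (26.2 to 48.0) and 1.42% in CLP_stim (0.389 to 3.6). Monocyte-like cells were absent among them in control and sham, were 3 cells in CLP and were 50 cells (17.8%) in CLP_stim. The numbers of all monocyte-like cells in control, sham and CLP are not given here, so these counts are not shares of the class. Cells with no class made up 16.8%, 23.2%, 28.0% and 39.9%. The difference over all kept cells from CLP to CLP_stim thus holds a macrophage-like part, from 20 to 95 cells, and a part in monocyte-like cells and cells with no class, from 3 to 50 and from 23 to 112 cells.

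**Figure D5:**
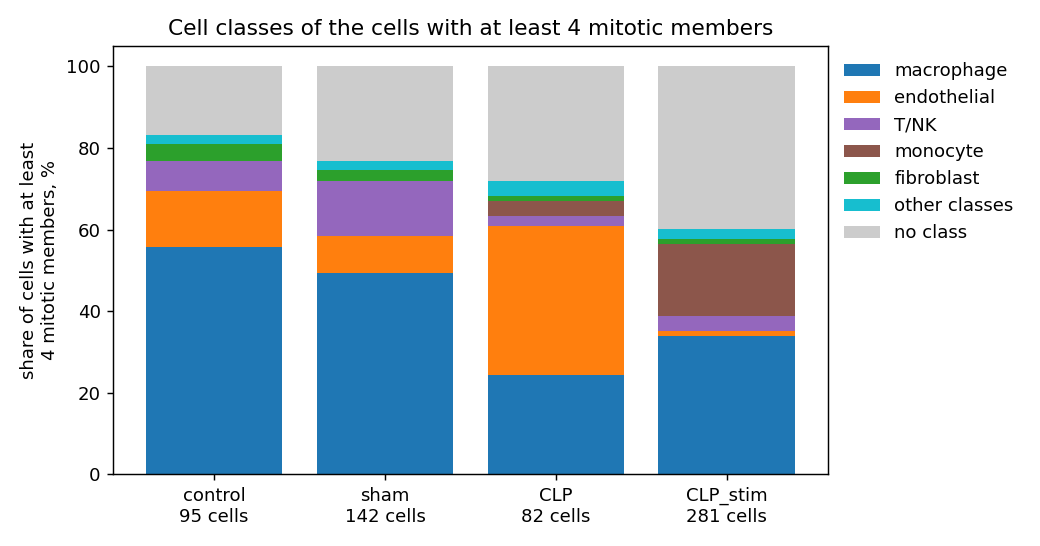
Share of the cells with at least 4 mitotic members that fell in each cell class, by library, with the number of such cells under each bar. Macrophage-like cells are 55.8% in control and 33.8% in CLP_stim, and endothelial-like cells 36.6% in CLP.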

How the data were processed

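Per the labels' protocols, Chromium 3′ v3 libraries were made from suspended heart cells. The deposited values are UMI counts for each gene and barcode; the file headers name Cell Ranger 5.0.0, and the submitters' processing notes STAR and mm10. The sources used here do not say whether intronic reads were counted, which annotation was used or how barcodes were filtered, and depth here means UMIs per barcode.

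Barcodes with at least 500 UMIs, at least 200 genes and at most 20% mitochondrial UMIs were kept. The highest Scrublet scores (scanpy 1.11.5), 0.8% of barcodes per 1000 barcodes, were left out as doublets. A cell received a class where it had UMIs of at least 3 of that class's 8 markers and at least 2 more than for any other of 12 classes; doublet and class rules were applied in each library alike. Counts were summed per library and class and divided by the class total. Ratios use a prior count of 0.5 and exact conditional binomial intervals, sums exact Poisson intervals, shares exact binomial (Clopper-Pearson) intervals, all at 95%; limits for shares of 0 use 3 counts. They cover counting error only, and those of UMI sums and UMI ratios leave out the spread between cells. No test was made, because each group has 1 library. A member or gene counted as past 2-fold had at least 20 counts over the pair and a log2 ratio of at least 1 or at most -1. Members with at least 20 counts over a pair were open to naming, and of other lists the genes with the 3 highest and 3 lowest ratios; genes outside this rule were named after their values were seen. The members and lists were chosen with earlier results of these data known. The ratio and its interval were run on simulated Poisson counts drawn at the class means. The interval assumes such counts, so the run checks the calculation only. It cannot show how the interval covers UMIs that lie together in few cells. Alternatives were TMM scaling (edgeR 4.0.16), other gates, doublet calls kept, at most 10% mitochondrial UMIs, cells thinned to 1000 UMIs, other limits on mitotic members, no minimum count and, added after the values were seen, S-phase sums without Pcna. Promoter windows came from RefSeq (GRCm38.p6). The red blood cell marker Ahsp is not among the files' genes, leaving 7 markers for that class. The values of 1 gene of the further S-phase list are not reported here.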

Additional observations from a re-analysis of the deposited data

Results flagged for a closer look

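Summed levels moved in opposite directions in different cell classes under the same comparison; each such difference lies between single libraries and was not tested. For the mitotic members in CLP over sham, endothelial-like cells were higher (0.40 on the log2 scale) while macrophage-like (-1.47) and fibroblast-like cells (-0.67) were lower, differences of 1.88 and 1.07. Under the stricter gate the fibroblast-like value was 0.035. For the mitotic members in sham over control, fibroblast-like cells were lower (-0.44) while macrophage-like (0.24) and endothelial-like cells (0.74) were higher, differences of 0.68 and 1.19. With doublet calls kept, the signs turned in macrophage-like (-0.51) and fibroblast-like cells (0.037), and after thinning in fibroblast-like cells (0.012). For the S-phase members in CLP over sham, fibroblast-like cells were higher (0.22) while macrophage-like (-0.72) and endothelial-like cells (-0.23) were lower, differences of 0.94 and 0.45. Without Pcna the fibroblast-like value was 0.05 (-0.07 to 0.16). For the S-phase members in sham over control, macrophage-like cells were higher (0.36) and fibroblast-like cells lower (-0.14), a difference of 0.50; after thinning the fibroblast-like value was 0.011.

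Barcodes left out as doublet calls held many cells with at least 4 mitotic members in control, 81 of 176, against 28 of 170 in sham, 6 of 88 in CLP and 11 of 292 in CLP_stim. The share of barcodes left out as doublets was 12.8% in control and 6.99% to 7.63% in the other libraries, since the number left out was set to grow with the number of barcodes.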

How the results depend on the processing

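No paired analysis was possible because each group has 1 library. Under the alternatives, 37 of 66 values of the mitotic sums and 53 of 78 of the S-phase sums stayed within the counting interval of the main value, as did 53 of 60 ratios of dividing-cell shares. The counts of members stayed within 1.5 times in 58 of 78 (higher) and 62 of 78 (lower). TMM factors shift all genes of a class by up to 0.25 on the log2 scale. In macrophage-like cells the mitotic sum kept its direction for CLP over sham and for CLP_stim over CLP in every alternative run. The values that left these ranges follow; the cause was not tested, except that thinning and stricter gates leave fewer counts. Shares of dividing cells rest on 4 cells in endothelial-like CLP_stim and on 1 to 4 cells in fibroblast-like libraries, which limits their precision. The mitotic log2 ratio under TMM scaling was for CLP over sham -1.19 in all cells, 0.56 in endothelial-like, -1.25 in macrophage-like, and for CLP_stim over CLP 2.37 in all cells, 0.80 in fibroblast-like. With doublet calls kept, the mitotic log2 ratio was for CLP over sham -1.39 in all cells, 0.22 in endothelial-like, -1.57 in fibroblast-like, and for sham over control 0.43 in all cells, 0.33 in endothelial-like, 0.037 in fibroblast-like (reversed), -0.51 in macrophage-like (reversed). The mitotic log2 ratio under cells thinned to 1000 UMIs was for CLP over sham -0.93 in all cells, -1.18 in macrophage-like, and for CLP_stim over CLP 1.80 in all cells, 0.19 in endothelial-like, 1.71 in macrophage-like, and for sham over control 0.55 in all cells, 0.17 in endothelial-like, 0.012 in fibroblast-like (reversed). With the stricter gate, the mitotic log2 ratio was for CLP_stim over CLP -0.67 in endothelial-like, and for sham over control 0.51 in endothelial-like, -1.18 in fibroblast-like, 0.16 in macrophage-like, and for CLP over sham 0.035 in fibroblast-like (reversed), -1.36 in macrophage-like. The mitotic log2 ratio under the looser gate was for CLP_stim over CLP 1.02 in fibroblast-like, 2.04 in macrophage-like, and for sham over control 0.36 in macrophage-like. With TMM scaling, the S-phase log2 ratio was for CLP over sham -0.36 in all cells, -0.070 in endothelial-like, 0.31 in fibroblast-like, -0.50 in macrophage-like, and for CLP_stim over CLP 0.69 in all cells, 0.25 in fibroblast-like. The S-phase log2 ratio under doublet calls kept was for CLP over sham -0.49 in all cells, and for sham over control 0.28 in macrophage-like. With cells thinned to 1000 UMIs, the S-phase log2 ratio was for CLP over sham -0.25 in all cells, 0.11 in fibroblast-like, -0.45 in macrophage-like, and for CLP_stim over CLP 0.20 in all cells, 0.59 in endothelial-like, -0.16 in macrophage-like, and for sham over control 0.17 in all cells, 0.011 in fibroblast-like (reversed). Without Pcna, the S-phase log2 ratio was for CLP over sham -0.61 in all cells, 0.046 in fibroblast-like, -0.999 in macrophage-like, and for CLP_stim over CLP 0.78 in all cells, 0.30 in macrophage-like, and for sham over control 0.19 in all cells, -0.28 in fibroblast-like, 0.10 in macrophage-like. The S-phase log2 ratio under the looser gate was for CLP_stim over CLP 0.024 in macrophage-like. With cells thinned to 1000 UMIs, the log2 ratio of dividing-cell shares was for CLP over sham -1.26 in all cells, -1.68 in macrophage-like, and for CLP_stim over CLP 2.60 in all cells, 2.53 in macrophage-like. The log2 ratio of dividing-cell shares under doublet calls kept was for sham over control 0.75 in all cells, -0.030 in macrophage-like (reversed). With a limit of 6 mitotic members, the log2 ratio of dividing-cell shares was for CLP_stim over CLP 2.20 in macrophage-like. The number of members higher past 2-fold under doublet calls kept was for sham over control 1 in all cells, 2 in endothelial-like, 0 in fibroblast-like, 0 in macrophage-like, and for CLP over sham 1 in endothelial-like, 0 in fibroblast-like. With cells thinned to 1000 UMIs, the number of members higher past 2-fold was for sham over control 3 in all cells, 1 in endothelial-like, 0 in fibroblast-like, 1 in macrophage-like, and for CLP over sham 1 in endothelial-like, 0 in fibroblast-like, and for CLP_stim over CLP 0 in fibroblast-like, 14 in macrophage-like. The number of members higher past 2-fold under the looser gate was for CLP over sham 2 in endothelial-like. With no minimum count, the number of members higher past 2-fold was for CLP_stim over CLP 6 in endothelial-like, and for CLP over sham 2 in fibroblast-like. The number of members higher past 2-fold under TMM scaling was for CLP over sham 3 in fibroblast-like. With the stricter gate, the number of members higher past 2-fold was for CLP over sham 5 in fibroblast-like, and for sham over control 0 in fibroblast-like. The number of members lower past 2-fold under cells thinned to 1000 UMIs was for CLP over sham 5 in all cells, 2 in endothelial-like, 0 in fibroblast-like, 7 in macrophage-like, and for CLP_stim over CLP 1 in endothelial-like, 0 in fibroblast-like, and for sham over control 0 in fibroblast-like. With TMM scaling, the number of members lower past 2-fold was for CLP_stim over CLP 1 in endothelial-like, 0 in fibroblast-like. The number of members lower past 2-fold under doublet calls kept was for sham over control 2 in endothelial-like, 1 in fibroblast-like, 1 in macrophage-like, and for CLP over sham 15 in fibroblast-like. With no minimum count, the number of members lower past 2-fold was for sham over control 2 in endothelial-like. The number of members lower past 2-fold under the stricter gate was for CLP over sham 2 in fibroblast-like, and for sham over control 8 in fibroblast-like.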

Other observations

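Dividing monocyte-like cells and dividing cells with no class in CLP_stim had higher levels of primary granule genes and of Ms4a3 than the other cells of those groups. These genes are active in early precursors of neutrophils and monocytes in bone marrow, and were chosen after their values were seen. In the 50 monocyte-like cells with at least 4 mitotic members, Mpo (myeloperoxidase) was at 352 CPM, Elane (neutrophil elastase) at 548, Ctsg (cathepsin G) at 565, Prtn3 (proteinase 3) at 829 and Ms4a3 at 112. In the other 54 monocyte-like cells of that library they were at 9.22, 43.4, 6.58, 128 and 3.95. In the 112 dividing cells with no class they were at 182, 217, 384, 469.6 and 19.1, against 15.6, 6.47, 13.9, 20.6 and 1.22 in the other 2494. In the 95 dividing macrophage-like cells they were lower, at 11.8, 30.7, 1.57, 66.1 and 3.15. The S-phase members of these 50 cells summed to 1264 CPM, against 480.1 in the dividing macrophage-like cells of the same library. These 50 cells stood beside 54 other monocyte-like cells, a higher share dividing than among T and NK-like or macrophage-like cells in CLP_stim. Monocyte-like cells also held neutrophil markers, at 82.0, 1771, 23554 and 8646 CPM in control, sham, CLP and CLP_stim.

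T and NK-like cells had the highest share of dividing cells among classes of at least 50 cells in sham. It was 7 of 68 in control (10.3%, 4.24 to 20.1), 19 of 91 in sham (20.9%, 13.1 to 30.7) and 10 of 115 in CLP_stim (8.70%, 4.25 to 15.4), with 2 of 22 cells in CLP. Their mitotic members summed to 1166, 2538, 830 and 419.6 CPM. The S-phase members summed to 594, 1013, 614 and 377, and Hmgb2 was at 1917, 3228, 816 and 716. B cell-like cells had 1 of 167, 2 of 138, 0 of 23 and 2 of 77 dividing cells.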
